A study of Mus musculus and Rattus norvegicus with 80 samples.

Results

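Read counts were deposited for 17019 annotated mouse full-length L1 loci in 68 libraries, and 2 of these loci, UID-11783 and UID-4099, are described here. They were chosen by name, with earlier results of these libraries known, because the authors' curated lists named them in several organs, so their levels across organs and their presence on these lists are given as a description with no test. The libraries came from C57BL/6 mice with no stated treatment or engineered allele, and cytoplasmic, polyadenylated RNA was sequenced from pieces of whole organs. The 9 females fell into age groups of 2.2-3.2 mo (3 mice), 8-8.7 mo (4 mice) and 16.5 mo (2 mice), and each gave a brain, a lung and an ovary library. Uterus was available for 1, 3 and 2 mice of these age groups. The 12 males, 3 in each age group of 1.9-3.6 mo, of 7.6 mo, of 12.8 mo and of 22.3 mo, gave testis and liver. Male brain was limited to the middle age groups (3 mice of 7.6 mo and 3 of 12.8 mo), as was male lung (2 and 3 mice).

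L1 elements are retrotransposons that copy themselves through an RNA intermediate. A full-length element holds an internal promoter in its 5′ untranslated region, which lets it be transcribed without a gene's promoter, and open reading frames for an RNA-binding protein (ORF1p) and for an endonuclease and reverse transcriptase (ORF2p). Because many L1 copies are nearly identical and many others lie within genes, reads from an L1 sequence can come from another copy or from a passing transcript, and for this reason the authors kept unique alignments and examined each locus in a genome browser before listing it as expressed.

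On the mm10 assembly, UID-11783 occupies positions 31225136 to 31230125 of chromosome 7, in plus orientation, and is 4990 bp long. UID-4099 occupies positions 23607560 to 23612540 of the X chromosome, in minus orientation, and is 4981 bp long. Both were on the authors' list of non-intact elements, those without complete reading frames, and neither overlapped a gene of GENCODE release M21 on either strand. The nearest annotated gene upstream of UID-11783, in the direction of its own transcription, was Gm37292, an unclassified transcript on the same strand 16.0 kb away, and the nearest protein-coding genes were Gramd1a, 69.2 kb upstream, and Scgb2b2, 60.4 kb downstream. A further full-length L1 element, UID-12016, lay on the opposite strand 2.19 kb from it. UID-4099 was more isolated. Its nearest upstream gene was Wdr44, 80.5 kb away, its nearest downstream gene was the pseudogene Gm7164, at 208 kb, and its nearest L1 element was UID-15915, at 66.3 kb. The sequences of the loci were not read, since no mm10 genome was used here.

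Both loci were read in many organs, and the organs in which they were found differed. UID-11783 had at least 1 read in 61 of 68 libraries and more than 10 reads in 52. UID-4099 had at least 1 read in 48 and more than 10 in 30. Only 20 of the 689 curated loci were listed in at least 3 of the 8 organs (brain and lung counted separately by sex), against 624 listed in a single organ. Among these 20, UID-11783 ranked 2 and UID-4099 ranked 4 by the number of libraries with more than 10 reads, for which the 18 others had a median of 15 and a range from 2 to 68. UID-11783 had the higher count in 57 of the 68 libraries and UID-4099 in 2, while the counts were equal above 0 in 3 and both 0 in 6.

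Levels were expressed as FPKM, that is reads in the counting window of a locus per 6 kb and per 1000000 mapped reads (1 M) of the library. This window held the element and bases beside it (up to 6690 bp for the 4990 bp of UID-11783 and 6681 bp for the 4981 bp of UID-4099). Reads beside the element therefore count in these levels, and their part was not separated. Mapped reads ranged from 8.45 M to 51.4 M over the 62 libraries where their number could be recovered, and reads on all L1 loci from 9567 to 109959 over all 68. The mates of a pair were counted separately, so almost all counts were even, and 1 fragment adds 2 reads. A count of 0 allows up to 3 fragments, or 6 reads, which at these depths is an FPKM between 0.0195 and 0.0525 in female brain and between 0.0214 and 0.118 in female lung. These limits cover counting error only. Relative to all mapped reads, L1 reads were more frequent in male than in female lung (3850 to 5839 against 532 to 1259 per M) and brain (805 to 1325 against 307 to 600 per M). In addition, every female file names chromosomes in another way than every male file, and the sequencing platform of each library is not given in the sources used here. Sex and processing therefore cannot be told apart in the following values.

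UID-11783 had its highest mean in the ovary and its lowest in the liver. In such pieces of organs, fewer cells of a type and less RNA per cell cannot be told apart, and since the files hold L1 loci only, the organs were not checked with marker genes. In the 9 ovaries it ranged from 0.276 to 1.44 FPKM with a median of 0.705, from 62 to 314 reads, and its mean was 0.726 ± 0.397 (SD, n = 9). The 6 uteri ranged from 0.0997 to 1.41 FPKM with a median of 0.586 (mean 0.661 ± 0.502, SD, n = 6). For 2 of these uteri, of mice 1534 and 1324, the recovered number of mapped reads was the same, so that at least 1 of these FPKM values is less certain. Female brain (0.390 ± 0.192, n = 9), female lung (0.367 ± 0.175, n = 9), male brain (0.453 ± 0.251, n = 6) and male lung (0.329 ± 0.181, n = 5) had similar means. Each organ overlapped with the next in the order of means, from ovary through uterus, male brain, female brain, female lung and male lung to testis and liver, so the ranges over all libraries did not separate neighbours in this order. Between organs of the same animal, UID-11783 was higher in ovary than in uterus in 5 of 6 females and higher in lung than in testis in 3 of 5 males. It was higher in testis than in liver in 9 of 10 males, by 0.0876 ± 0.0885 FPKM (SD).

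**Figure D1:**
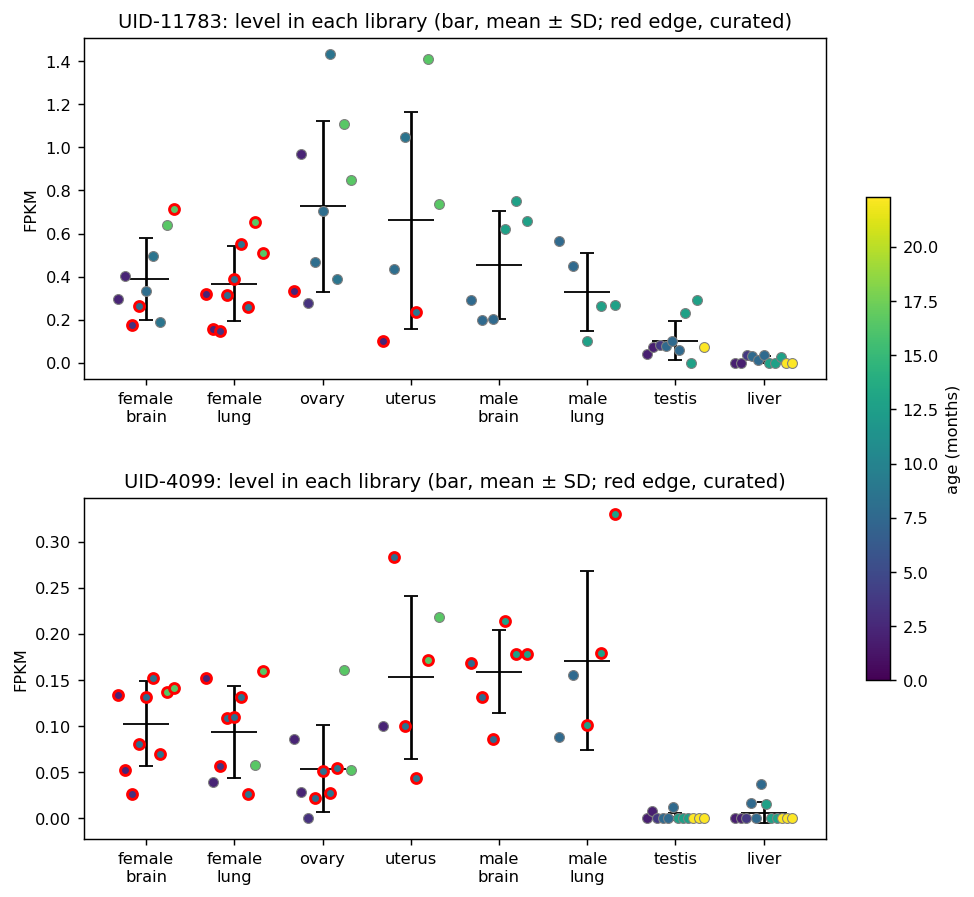
Level of UID-11783 (top) and UID-4099 (bottom) in each library, in FPKM, for the 8 organs. Points are libraries coloured by age, those with a red edge were on the curated list, and black bars give the mean ± SD. UID-11783 is highest in ovary and uterus, whereas UID-4099 is near 0 in testis and liver.

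UID-11783 was low in testis, and in liver it was close to the limit of detection. The 12 testes held 0 to 48 reads with a median of 17, and 9 of them had more than 10 reads. The 10 testes with a known number of mapped reads had a mean of 0.102 ± 0.0894 FPKM. At 12.8 mo the testes of mice 899 and 901 had 36 and 48 reads, whereas that of mouse 900 had 0. The 12 livers held 0 to 8 reads, and 6 of them had none. In all 6 males with brain, testis and liver, the brain had a higher FPKM of UID-11783 than both other organs.

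UID-4099 was found in brain, lung and uterus, less in ovary, and hardly in testis or liver. Means were 0.171 ± 0.0967 FPKM in male lung (n = 5), 0.159 ± 0.0447 in male brain (n = 6), 0.153 ± 0.0887 in uterus (n = 6), 0.102 ± 0.0458 in female brain (n = 9), 0.0935 ± 0.0498 in female lung (n = 9) and 0.0536 ± 0.0472 in ovary (n = 9). Mapped reads of the 3 male lungs of 12.8 mo rested on a minority of their listed loci, so FPKM there is less certain for either locus. The 2 other male lungs were not listed for UID-4099 and had 10 and 16 reads. The 9 female brains ranged from 6 to 36 reads with a median of 18, and the 9 ovaries from 0 to 34 with a median of 10. In testis, 10 of 12 libraries had no read of UID-4099 and the other 2, of mice 1110 and 1305, had 2 reads each. A count of 0 in a testis, with its limit of 6 reads, allows an FPKM between 0.0230 and 0.0443 according to depth, which is below the lowest of the 6 male brains at 0.0855. In liver, 9 of 12 libraries had no read and the highest had 4.

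Within single females, the order of organs differed between the loci. UID-11783 had a higher FPKM in ovary than in brain in 9 of 9 mice, by 0.337 ± 0.286 (SD), and higher than in lung in 9 of 9, by 0.360 ± 0.308. UID-4099 was higher in ovary than in brain in 1 of 9 mice, mouse 1004, and higher than in lung in 2 of 9. Between brain and lung, neither locus kept 1 order: UID-11783 was higher in brain in 3 of 9 females and UID-4099 in 5 of 9. The ratio of UID-11783 to UID-4099 reads had a median of 15.1 in the 8 ovaries where UID-4099 was read, against 3.28 in female brain, 3.56 in female lung, 4.44 in uterus and 1.45 in male lung.

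**Figure D2:**
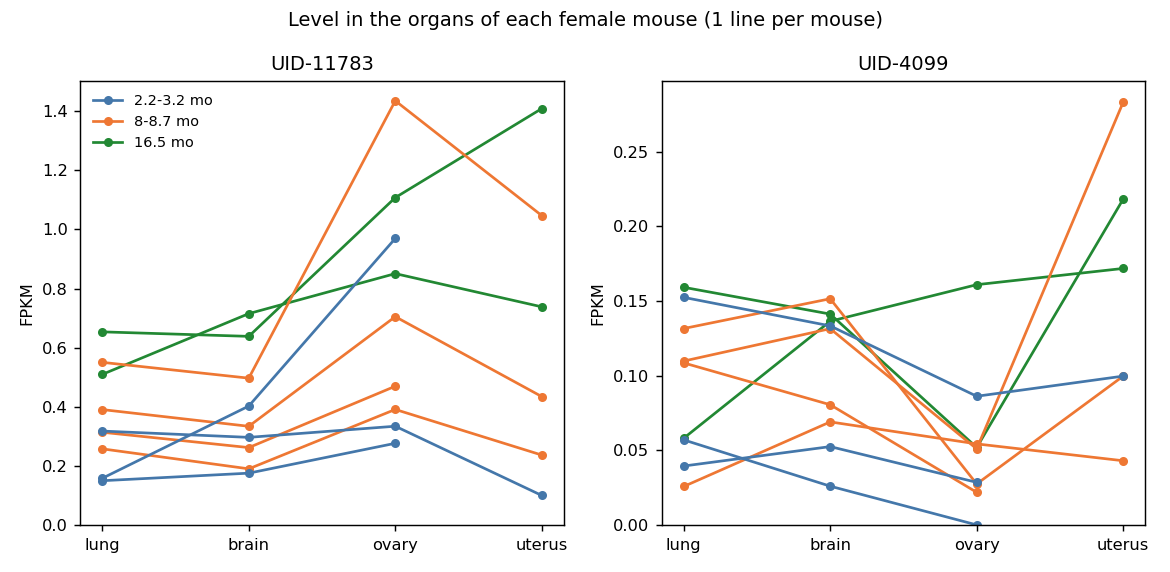
FPKM of UID-11783 (left) and UID-4099 (right) in lung, brain, ovary and uterus, with 1 line for each female mouse, coloured by age group. Every line of UID-11783 rises from brain to ovary, and 8 of 9 lines of UID-4099 fall.

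Loci were ranked by mean FPKM over all libraries of an organ, whether or not the locus was listed in each, so these are not ranks of curated expression. By this mean, UID-11783 exceeded every other listed locus in female brain (rank 1 of 64) and in ovary (rank 1 of 60), and it ranked 3 of 46 in uterus and 3 of 41 in female lung. It was listed, however, in only 3 of the 9 female brains and 1 of the 9 ovaries. The listed ovary had 0.334 FPKM, against a mean of 0.775 in the 8 others. In the male brain it ranked 2 of 53 by level although it was not on that list. UID-4099 ranked 8 of 64 in female brain, 5 of 53 in male brain, 7 of 41 in female lung, 5 of 46 in uterus and 11 of 60 in ovary. When all 17019 loci were ranked, whether listed or not, UID-11783 was at position 21 in both female brain and ovary, and UID-4099 at positions 66 and 137.

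The share of all L1 reads gave another order of organs. UID-11783 made up 49.0 ± 22.0 of every 10000 L1 reads in ovary, 47.2 ± 18.0 in female brain, 28.7 ± 20.05 in uterus, 24.2 ± 11.1 in female lung and 23.6 ± 8.74 in male brain. In male lung its share was only 3.80 ± 1.72, although its FPKM there was close to that of female lung. UID-4099 likewise had 12.5 ± 5.38 of 10000 L1 reads in female brain and 8.81 ± 1.598 in male brain, but 2.10 ± 1.20 in male lung against 6.18 ± 2.96 in female lung.

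The presence of UID-11783 on the curated lists did not follow its read count. It was listed in 15 libraries, all from females: the 9 lungs, 3 brains (mice 1540, 1337 and 1006), 2 uteri (mice 1534 and 1325) and 1 ovary (mouse 1534). Of the 52 libraries with more than 10 reads of UID-11783, 38 were not listed. The listed ovary had 62 reads over 67.1% of the counting window, the lowest count of the 9 ovaries, whereas the 8 others had 68 to 314 reads over 36.7% to 93.3%. The same order was seen in uterus, where the listed libraries had 16 and 22 reads and the 4 others had 92 to 168. In brain, the libraries of mice 1004 and 1006 had nearly equal counts, 159 and 162 reads, with 86.4% and 85.2% of the window covered, and only that of mouse 1006 was listed. All 9 female lungs were listed, including that of mouse 1535 with 8 reads. No male library was listed, and the 6 male brains had 38 to 118 reads.

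UID-4099 was listed more often, and at lower counts. Its 33 listed libraries were all 15 brains, 7 of 9 female lungs, 3 of 5 male lungs, 4 of 9 ovaries and 4 of 6 uteri. Of these, 8 had 10 reads or fewer, down to 4 reads in the uterus and the lung of mouse 1325 and in the ovary of mouse 1337. Only 5 libraries with more than 10 reads were not listed. In ovary, listing followed age, since the 4 ovaries of 8-8.7 mo were listed with 4, 12, 6 and 10 reads (mice 1337, 1338, 1324 and 1325), whereas the ovary of mouse 1004 at 16.5 mo, with 34 reads over 38.5% of the window, was not. In male lung, the 2 unlisted libraries of 7.6 mo had 10 and 16 reads that covered 2.78% and 2.25% of the window, and the 3 listed libraries of 12.8 mo had 14, 22 and 44 reads that covered 6.59%, 11.2% and 14.5%.

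**Figure D3:**
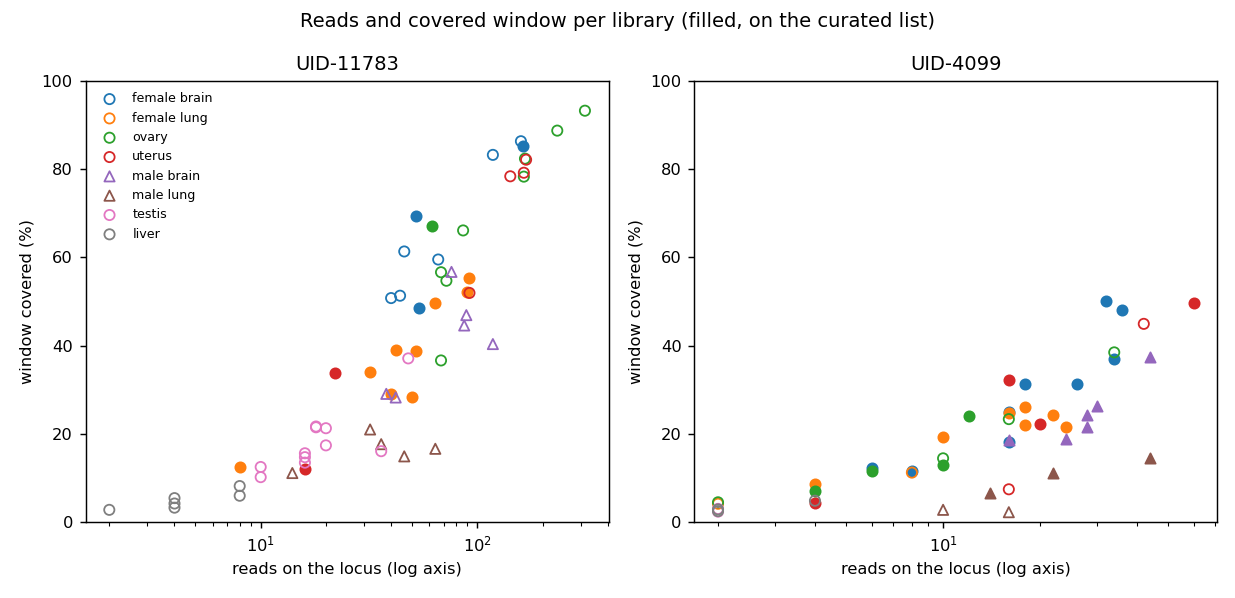
Share of the counting window covered by reads (%) against the number of reads (log axis) for UID-11783 (left) and UID-4099 (right). Each point is a library with at least 1 read, coloured by organ, with triangles for male brain and lung and filled symbols for libraries on the curated list. For UID-11783, open symbols reach 314 reads, and among the libraries with 40 to 70 reads the 2 male lungs lie lowest.

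The counting window was longer than the element (6690 bp for UID-11783 and 6681 bp for UID-4099, or 5790 and 5781 bp at 12.8 mo). The deposited fraction does not say where in the window the covered bases lie. In some libraries UID-11783 had more covered bases than its length of 4990 bp, so bases outside the element were covered there. Among these were the unlisted ovary of mouse 1324 (6240 bases) and the listed brain of mouse 1006 (5700 bases). UID-4099 reached at most 3356 bases, fewer than its 4981 bp. Since more reads can cover more bases, libraries were compared at similar counts. With 40 to 70 reads, UID-11783 was covered over 3250 to 4648 bases in 6 female brains and over 2452 to 4488 bases in 3 ovaries. It was covered over 1893 to 3322 bases in 5 female lungs, 1890 bases in 1 male brain, 2149 bases in 1 testis and 997 to 1112 bases in 2 male lungs. Hence at these counts the reads of male lung covered fewer bases in total, with no overlap with the other organs in this range. Male brain and testis gave 1 library each, the testis with the shorter window of 12.8 mo, and uterus and liver gave none. At a lower count the order of testis and male lung was not kept, since 36 reads covered 931 bases in the testis of mouse 899 and 1023 bases in the lung of mouse 901. With 14 to 28 reads UID-4099 was covered over 1440 to 1738 bases in 5 female lungs, 1216 to 2086 bases in 4 female brains and 1093 to 1444 bases in 4 male brains, 1560 bases in 1 ovary and 150 to 648 bases in 3 male lungs. The 3 uteri, with 497 to 2157 bases, overlapped with male lung. The part of read length or library preparation in this difference was not tested.

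Next, the age groups were compared with the quasi-likelihood test of edgeR, with Benjamini-Hochberg adjustment over all loci tested. In all 7 comparisons within female organs the fitted log2 fold change of UID-11783 was above 0, between 0.15 and 1.08, and that of UID-4099 was also above 0, between 0.01 and 1.45, with standard errors from 0.43 to 1.13. None passed the threshold: adjusted p ranged from 0.27 to 0.99 for UID-11783 and from 0.57 to 0.996 for UID-4099. The median of all loci tested was also above 0 in each, between 0.22 and 1.11, and under scaling by the L1 reads themselves (TMM) the signs were mixed. The 7 comparisons are not independent, since they use organs of the same 9 females. In brain, lung and ovary the libraries of 8-8.7 mo also enter both comparisons of the organ. In 6 of these 7 comparisons edgeR called 0% of 87 to 232 loci, while 1 to 34 loci had an unadjusted p under 0.05 and DESeq2 called 0 to 2. In the seventh, female lung at 16.5 mo against 8-8.7 mo, 1.89% of 106 loci were called.

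In female brain UID-11783 had 0.638 and 0.715 FPKM at 16.5 mo (mice 1004 and 1006), against 0.262, 0.334, 0.497 and 0.190 at 8-8.7 mo (mice 1337, 1338, 1324 and 1325). The groups did not overlap. The log2 fold change was 1.08 ± 0.43 (SE), with an adjusted p of 0.27 by edgeR, beside a median of 0.83 over the 192 loci tested. Without the brain of mouse 1324 it was 1.37, with an adjusted p of 0.040 by edgeR, and 17 loci were called instead of 0. At 2.2-3.2 mo, the brains had 0.296, 0.402 and 0.175 FPKM (mice 1534, 1535 and 1540), within the range of the 8-8.7 mo brains but for the last. UID-4099 in brain had 0.136 and 0.141 FPKM at 16.5 mo and 0.0805, 0.131, 0.152 and 0.0690 at 8-8.7 mo, which overlapped (log2 fold change 0.36 ± 0.50, adjusted p = 0.65 by edgeR).

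In female lung UID-11783 had 0.318, 0.158 and 0.150 FPKM at 2.2-3.2 mo, 0.314, 0.390, 0.550 and 0.257 at 8-8.7 mo and 0.653 and 0.509 at 16.5 mo, in the same order of mice as for brain. Each age group overlapped with the next. In ovary it had 0.334, 0.969 and 0.276 FPKM, then 0.469, 0.705, 1.44 and 0.391, then 1.11 and 0.850. The spread between ovaries of 1 age was as large as the differences between ages, and mouse 1324, at 8.6 mo, had the highest value. In uterus the values were 0.434, 1.05 and 0.236 FPKM at 8-8.7 mo (mice 1338, 1324 and 1325) and 1.41 and 0.738 at 16.5 mo, with a log2 fold change of 0.90 ± 0.79 (adjusted p = 0.63 by edgeR).

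For UID-4099 the largest fitted change among the female organs was in ovary, where it had 0.161 and 0.0519 FPKM at 16.5 mo against 0.0218, 0.0509, 0.0274 and 0.0543 at 8-8.7 mo. The groups overlapped, and the higher mean rested on mouse 1004. The log2 fold change was 1.45 ± 0.82, with an adjusted p of 0.57 by edgeR, and it was 0.42 without the ovary of mouse 1004.

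**Figure D4:**
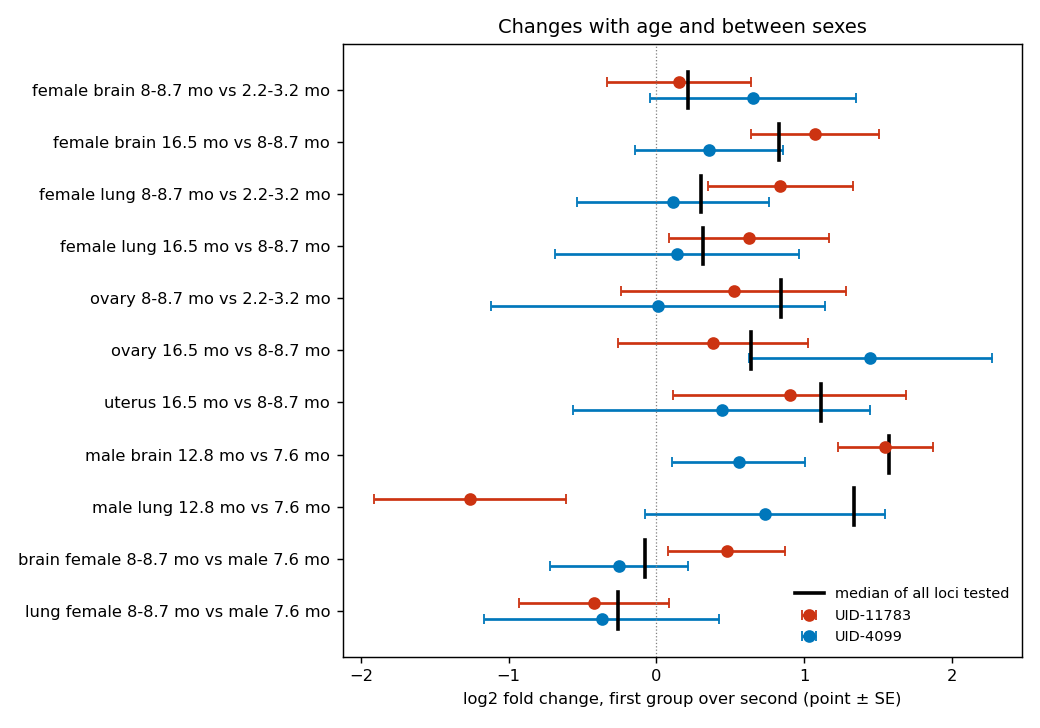
Log2 fold change (± SE, edgeR) of UID-11783 and UID-4099 in the 11 comparisons of age groups and sexes, with the median over all loci tested in each as a black bar. UID-11783 in male brain lies on the median of that comparison, and in male lung its distance from the median is -2.60.

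In males, the values of UID-11783 at the older age were higher in brain and lower in lung. The brains had 0.291, 0.196 and 0.203 FPKM at 7.6 mo (mice 1209, 1303 and 1305) and 0.619, 0.752 and 0.660 at 12.8 mo (mice 899, 900 and 901), without overlap. The log2 fold change was 1.55 ± 0.32, with an adjusted p of 0.0022 by edgeR. In this comparison, 55.8% of the 199 loci tested were called, 50.8% higher and 5.03% lower, and the median over all of them was 1.57, so UID-11783 moved as the median locus did. With TMM scaling its log2 fold change was 0.22 (adjusted p = 0.57 by edgeR) and with DESeq2 it was 0.36 (adjusted p = 0.47), neither past the threshold. The counting windows were also shorter at 12.8 mo, so age and processing cannot be told apart here.

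In the lungs of 5 of these males, UID-11783 had 0.566 and 0.447 FPKM at 7.6 mo (mice 1209 and 1303) and 0.101, 0.261 and 0.270 at 12.8 mo (mice 899, 900 and 901), again without overlap but lower at the older age. The log2 fold change of -1.26 ± 0.65 did not pass (adjusted p = 0.14 by edgeR), while 36.8% of 155 loci were called (27.1% higher and 9.68% lower) and the median was 1.34. The shorter counting windows at 12.8 mo apply to lung and to UID-4099 as well, so age and processing cannot be told apart here either. In the 3 lungs of 12.8 mo the number of mapped reads rested on a minority of the listed loci, and FPKM is less certain. The share of L1 reads, which does not use this number, also differed in this direction, with 5.82 and 5.23 of 10000 L1 reads at 7.6 mo and 1.57, 3.03 and 3.36 at 12.8 mo. The difference between the changes in lung and brain, tested with an interaction term chosen after these values were seen, was -2.82 ± 0.78 on the log2 scale, with an adjusted p of 0.053 by edgeR, beside a median of -1.03 over 382 loci, of which 3.4% were called. With the animal as a block it was -2.86, with an adjusted p of 0.22.

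UID-4099 in male brain had 0.168, 0.131 and 0.0855 FPKM at 7.6 mo and 0.213, 0.178 and 0.178 at 12.8 mo. The groups did not overlap, but the log2 fold change of 0.56 ± 0.45 did not pass the threshold (adjusted p = 0.30 by edgeR) and was below 0 with TMM scaling. In male lung UID-4099 had 0.0885 and 0.156 FPKM at 7.6 mo and 0.101, 0.180 and 0.330 at 12.8 mo (0.74 ± 0.81, adjusted p = 0.50 by edgeR). Of the 18 other loci listed in at least 3 organs, 8 were tested in each male comparison. In brain 1 of the 8 was called higher and 0 lower, beside 50.8% and 5.03% of all loci tested, but 0 higher and 1 lower with TMM, with DESeq2 and with L1 reads as library size. In lung 1 was called higher and 1 lower, beside 27.1% and 9.68% of all loci.

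Finally, females of 8-8.7 mo were compared with males of 7.6 mo. In brain, the log2 fold change of females over males was 0.48 ± 0.40 for UID-11783 (adjusted p = 0.58 by edgeR) and -0.25 ± 0.47 for UID-4099 (adjusted p = 0.83 by edgeR), while 11% of 146 loci were called. In lung, the values were -0.42 ± 0.51 for UID-11783 (adjusted p = 0.70 by edgeR) and -0.37 ± 0.80 for UID-4099 (adjusted p = 0.85 by edgeR), with 16.4% of 110 loci called. These directions depended on the scaling. When the L1 reads of a library were taken as its size, both loci were higher in female lung, by 2.16 for UID-11783 (adjusted p = 0.0068 by edgeR) and by 2.17 for UID-4099 (adjusted p = 0.047 by edgeR), beside a median of 2.30 over all loci tested.

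The levels of UID-11783 were then compared between organs of the same female, where no Pearson correlation and 2 of 3 rank correlations passed the threshold after adjustment. Over the 9 females, Pearson's r of FPKM was 0.80 between brain and lung, 0.74 between brain and ovary and 0.67 between lung and ovary, and Spearman's rho was 0.78, 0.83 and 0.68. The exact permutation p of r, two-sided, was 0.012, 0.024 and 0.050, and 0.096 for each after adjustment over the 9 relations computed. For rho the exact permutation p was 0.017, 0.0083 and 0.050, and the adjusted values were 0.048, 0.048 and 0.091. Without the 2 mice farthest from the median on the x axis, r was 0.63, 0.94 and 0.29 (exact permutation p = 0.12, 0.0014 and 0.52), so the relation of lung with ovary rested on mice 1004 and 1324. That of brain with lung kept an r of 0.63 with 7 mice but was not past the threshold. The relation of brain with ovary had an adjusted p of 0.0125 by the exact permutation test without mice 1004 and 1006. As shares of L1 reads, r was 0.58, 0.71 and 0.56. Both rank calls were lost as shares of L1 reads (adjusted exact permutation p of rho = 0.19 for brain with lung and 0.078 for brain with ovary) and without the 2 farthest mice (0.30 and 0.11).

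For UID-4099, r was 0.71 between brain and lung (rho 0.77), 0.54 between brain and ovary (rho 0.40) and -0.01 between lung and ovary (rho 0.13). By the exact permutation test p of r was 0.037, 0.13 and 0.98, with adjusted values of 0.096, 0.19 and 0.98, and p of rho was 0.021, 0.29 and 0.74, with adjusted values of 0.048, 0.37 and 0.74. Without the 2 farthest mice r was 0.61, 0.27 and -0.15. Between the loci, r was 0.67 in brain (rho 0.77), 0.42 in lung (rho 0.60) and 0.24 in ovary (rho 0.15), with an exact permutation p of r of 0.053, 0.25 and 0.56 (adjusted 0.096, 0.32 and 0.63). The exact permutation p of these rho values was 0.021, 0.097 and 0.71 (adjusted 0.048, 0.15 and 0.74), and r was 0.62, 0.80 and 0.38 without the 2 farthest mice. The rank calls of UID-4099 between brain and lung and of both loci in brain were likewise lost as shares of L1 reads (adjusted exact permutation p of rho = 0.074 and 0.37) and without the 2 farthest mice (0.30 for each). The age groups held 3, 4 and 2 mice, too few to give these relations within an age.

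Over the 62 libraries with a known number of mapped reads, which share animals and differ in organ, depth and processing, the FPKM of UID-11783 and UID-4099 had a Spearman's rho of 0.65. Among 559 loci with at least 10 reads in at least 10 libraries, those with the pattern most like that of UID-11783 were UID-1573 (rho 0.83) and UID-1486 (rho 0.81) on chromosome 9 and UID-10126 (rho 0.80) on chromosome 10, none of which was on a curated list. The pattern most like that of UID-4099 was found in UID-10811 (rho 0.69) on chromosome 12, UID-6770 (rho 0.68) on chromosome 3 and UID-3297 (rho 0.68) on the X chromosome, of which UID-6770 was listed in 1 organ. UID-3297 had 0 to 19 reads with a median of 4, which is within the limit of 6 reads that a count of 0 allows. The median locus had a rho of -0.25 with UID-11783 and of -0.40 with UID-4099. Since the 12 testes alone could bring a locus past the filter, and both members were low in testis, this median is no neutral background. How many of the 559 loci entered in this way was not examined.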

How the data were processed

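Per the methods of the study, cytoplasmic RNA was selected for polyadenylated transcripts and sequenced from strand-specific paired-end libraries, by 2 platforms of different read length. As the methods state, the authors aligned the reads uniquely to mm10 with Bowtie, removed duplicates, separated strands and counted sense reads of each L1 locus with bedtools. The deposited values are counts per locus, not normalized, and the authors deposited beside them the covered fraction of each window. Loci in the files of 12.8 mo were matched by coordinates. Curated status was taken from the authors' list of expressed loci.

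FPKM was computed from the deposited counts, a length of 6 kb and the mapped reads of the library, recovered from the counts and the FPKM of the curated list (62 of 68 libraries). The other 6, testes of mice 830 and 831 and livers of mice 829, 830, 831 and 900, have no FPKM where reads were found. Mapped reads, from 8.45 M to 51.4 M, were the library sizes of edgeR 4.0.16 in R 4.3.3, which tested 11 comparisons over loci that reached 10 reads in a number of libraries equal to the size of the smaller group, at an adjusted p of 0.05. SE was the log2 fold change divided by the square root of F. The fit was tested on simulated data. Correlations over the 9 females used exact permutation tests (Python 3.11.15, numpy 2.4.6, scipy 1.17.1, pandas 2.3.3, matplotlib 3.10.9).

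Alternatives were TMM factors, L1 reads as library size, DESeq2 1.42.0, no filter on counts (at least 1 read), each library left out, shares of L1 reads, log2(FPKM + 0.01), and leaving out the 2 farthest mice. The interaction of organ and age was added after the values had been seen. The members and lists were chosen with earlier results of these data known. Other loci are named when their FPKM has the highest Spearman's rho with a member (the 3 highest for each), or as the nearest L1 element or gene. Gene positions are from GENCODE release M21 on GRCm38, the same assembly as mm10. The labels name separate animals, so replicates are mice. Rat libraries were not used here.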

Additional observations from a re-analysis of the deposited data

Results flagged for a closer look

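In males, the FPKM of UID-11783 was higher in each brain of 12.8 mo than at 7.6 mo and lower in each lung. It was flagged for these opposite directions. In brain its log2 fold change of 1.55 lay on the median of 1.57 over all loci tested, and it was 0.22 with TMM scaling. In lung its change did not pass the threshold (adjusted p = 0.14 by edgeR), and FPKM at 12.8 mo is less certain. Counting windows were also shorter at 12.8 mo. The difference of the log2 fold changes, lung minus brain, was -2.82 ± 0.78 (SE) and did not pass the threshold (adjusted p = 0.053 by edgeR, 11 libraries). With the animal as a block its adjusted p was 0.22 by edgeR. No library stood apart in the FPKM or covered share of either locus among the 38 sets of 4 to 10 libraries examined, where chance alone would mark about 1 set in 20. These sets were brain, lung and ovary of females of 8-8.7 mo, and organs with all ages pooled. Age groups of fewer than 4 libraries were not examined, among them the testes of 12.8 mo with 36, 0 and 48 reads of UID-11783.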

How the results depend on the processing

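No log2 fold change of UID-11783 or UID-4099 changed direction or side of the threshold without the filter on low counts (22 of 22). The scaling mattered more. With TMM, UID-11783 changed direction in female brain (-0.15) and ovary (-0.34) at 8-8.7 mo against 2.2-3.2 mo, in ovary at 16.5 mo (-0.22) and in lung between sexes (0.064). With TMM, UID-4099 did so at 8-8.7 mo in lung (-0.10) and ovary (-0.43), at 16.5 mo in brain (-0.47), lung (-0.040) and uterus (-0.57), in male brain (-0.75) and in lung between sexes (0.070). DESeq2 gave for UID-11783 -0.18 in brain and -0.30 in ovary at 8-8.7 mo, -0.19 in ovary and -0.0070 in uterus at 16.5 mo, and 0.061 in lung between sexes. For UID-4099 it gave -0.19 in lung and -0.33 in ovary at 8-8.7 mo, -0.39, -0.12 and -0.59 in brain, lung and uterus at 16.5 mo, -0.60 in male brain and 0.095 in lung between sexes. With L1 reads as library size, UID-11783 changed direction in female brain at 8-8.7 mo (-0.052) and in lung between sexes (2.16), and UID-4099 at 8-8.7 mo in lung (-0.11) and ovary (-0.081), at 16.5 mo in lung (-0.088), in male brain (-0.028) and between sexes in brain (0.57) and lung (2.17). The only call, UID-11783 in male brain, was lost with TMM (0.22) and DESeq2 (0.36). TMM and DESeq2 bring the median locus closer to 0 by construction, and other causes were not tested.

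Leaving out each library in turn, UID-11783 ranged from -0.14 to 0.46 in female brain at 8-8.7 mo and from 0.89 to 1.37 at 16.5 mo, where it passed the threshold without mouse 1324. UID-4099 ranged at 8-8.7 mo from -0.15 to 0.88 in lung and from -0.63 to 1.90 in ovary (5 fits, as it was not tested without mice 1325 or 1338), at 16.5 mo from -0.69 to 0.75 in lung, and between sexes in lung from -0.72 to 0.087. The direction turned without mouse 1324 or 1540 (UID-11783 in brain), without 1324, 1535 or 1540 (UID-4099 in lung at 8-8.7 mo), without 1006 or 1325 (lung at 16.5 mo), without 1535 or 1540 (ovary) and without 1303 (between sexes). The call of UID-11783 in male brain held in 6 of 6 (1.45 to 1.76). Fits that left 1 library of a group assume that it varies as the other group does.

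The number of loci called moved by more than 1.5 times without mouse 1324 at 16.5 mo in female brain (0 to 17) and ovary (0 to 6). Between sexes it ranged from 4 to 20 in brain (16 with all libraries, 4 to 10 when 1 of the males 1209, 1303 and 1305 or of the females 1337 and 1338 was left out, and 10 with no filter) and from 12 to 37 in lung (18 with all, 37 without mouse 1209), and with L1 reads as library size it was 64 in lung. Elsewhere counts of 0 to 2 became 0 to 4. For UID-11783 in brain with ovary, r was 0.94 without the 2 farthest mice and passed the threshold, and for UID-4099 in lung with ovary it became 0.040 as shares of L1 reads and 0.11 on the log2 scale. As shares of L1 reads, rescaled to FPKM, 19 of 48 group means were marked as moved, which meant by at least 1 SD. Groups with 1 FPKM value have no SD and were marked at any change (uterus of 2.2-3.2 mo for both loci, and UID-11783 in testis of 22.3 mo). No paired analysis was possible because the age groups and sexes compared share no animal. The interaction in males, which crosses organs of the same animal, was also fitted with the animal as a replicate block and did not pass the threshold in either fit (-2.82 and -2.86 for UID-11783, 0.18 and 0.29 for UID-4099). Counts of 0 to 10 reads in many libraries limit what can be said of UID-4099 in ovary, testis and liver.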
